A study of Mus musculus with 27 samples.

Results

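The smallest admixture of starburst cells in this mouse retina series was 17 starburst amacrine cells sorted together with 183 cone photoreceptors, so that starburst cells made up 8.5% of 200 cells. The 3 arrays of this 17:183 mixture were set against the 3 arrays of 200 cones with 0 starburst cells, and both sets were taken by their titles from the 27 arrays of the series. The 17:183 arrays held RNA of 2 mouse lines, ChAT-Cre × Rosa26-LSL-RFP for the starburst cells and Chrnb4-GFP for the cones. The pure cone arrays held RNA of the cone line alone, Tg(Chrnb4-EGFP)1Gsat, so the mouse line and the starburst cells cannot be told apart in this comparison. Arrays of pure starburst cells (the Rosa26-LSL-RFP reporter crossed to 129S6-Chat_tm1(cre)Lowl/J), of mixtures with 43, 50, 100, 125 and 150 starburst cells among 200, and of Arc amacrine cells (Tg(Arc-EGFP)194Gsat/Mmcd) served as points of comparison, with 3 arrays in each group. All mice were adults, no treatment is given, and the labelled background of every group is a mix of C57BL/6J and FVB/N-Swiss Webster hybrid. Lines from the mutant mouse repository came from stock with a recessive mutation that causes photoreceptor degeneration, and F2 animals of a cross to C57BL/6J were used. Before the sort, 2 Chrnb4-GFP retinas and 6 retinas with red starburst cells were pooled, so an array does not stand for 1 animal. The question put to the mixture was which starburst genes can still be read against 183 cones and which cannot.

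Starburst amacrine cells are the cholinergic interneurons of the retina. They release both acetylcholine and GABA and are known for shaping the direction selectivity of ganglion cells. Acetylcholine is made by choline acetyltransferase (Chat), loaded into vesicles by the vesicular acetylcholine transporter (Slc18a3), and broken down in the synaptic cleft by acetylcholinesterase (Ache), after which the transporter Slc5a7 takes choline back up. Slc18a3 is an intronless gene nested in the first intron of Chat. Cones detect light through opsins coupled to the transducin subunit Gnat2 and are not cholinergic.

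Values are log2 intensities per gene after RMA, the authors' background correction, normalization and summary of probes. The median of all values, 2.83, was taken as the floor below which a gene was treated as dim, and 12441 genes stood above it on at least 3 arrays and were tested. A gene is called higher or lower here when limma gave a Benjamini-Hochberg adjusted p under 0.05 over these genes together with a difference of at least 1 on the log2 scale. Errors of differences are standard errors (SE) from the fit over all arrays. Arrays carry no counts, so the number of arrays limits the precision, and the middle gene's 95% interval reached 0.472 to either side of its difference. Array medians lay between 2.78 and 2.89. The third array of each group stood apart: it correlated with the other arrays of its group at 0.929 and 0.938 in the 17:183 mixture and at 0.919 and 0.920 in pure cones, against 0.966 and 0.955 for the first 2 arrays of the mixture and of pure cones. Of 17 tested cone genes, 15 were at their lowest on the third array in the 17:183 mixture and 15 in pure cones, and of 14 tested rod genes 10 were at their highest there in each group. The rod transducin subunit Gnat1 had 7.83, 8.79 and 9.997 in the 17:183 arrays, against 8.11, 8.28 and 10.41 in the pure cone arrays. Results are therefore also given without the third arrays of both groups.

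Slc18a3 was the gene that differed most. It had 9.80, 9.38 and 9.33 on the 17:183 arrays, against 3.56, 3.10 and 2.81 on the pure cone arrays. All 3 mixture arrays stood far above all 3 cone arrays, by 6.34 ± 0.23 (SE) on the log2 scale or 81.3-fold (adjusted p = 1.61e-14), a fold that depends on the array background because the cone values lay near the floor. Calb2, which encodes the calcium-binding protein calretinin, had 8.75, 8.06 and 8.98 in the mixture, against 3.01, 2.83 and 2.72 in pure cones, a difference of 5.75 ± 0.19 (7.07e-15). Its cone values also lay around the floor. Slc10a4, a transporter of cholinergic synaptic vesicles, had 7.11, 7.21 and 7.79, against 2.97, 3.06 and 2.72, a difference of 4.45 ± 0.19 (6.65e-13). Cmtm8, a membrane protein with a MARVEL domain, had 7.49, 7.24 and 7.58, against 3.17, 2.94 and 4.66, a difference of 3.84 ± 0.27 (4.34e-09). The third cone array stood more than 1 log2 unit above the other two, and without the third arrays of both groups its difference was 4.31. In none of the 4 genes did the groups overlap, while 7.03% of all tested genes had mixture arrays wholly above the cone arrays.

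The markers were higher in a mixture to which starburst cells had been added, and a shared regulation of them was not tested. Windows from 250 bases before to 50 bases after the gene start are shown for the markers in RefSeq's table for build GRCm38.p6. They are Slc18a3 at chr14:32464801-32465100 (minus strand), Slc10a4 at chr5:73006654-73006953 (plus strand) and Cmtm8 at chr9:114844103-114844402 (minus strand), each written 5′ to 3′ with every CGCG in capitals. Calb2 was not matched.
Slc18a3: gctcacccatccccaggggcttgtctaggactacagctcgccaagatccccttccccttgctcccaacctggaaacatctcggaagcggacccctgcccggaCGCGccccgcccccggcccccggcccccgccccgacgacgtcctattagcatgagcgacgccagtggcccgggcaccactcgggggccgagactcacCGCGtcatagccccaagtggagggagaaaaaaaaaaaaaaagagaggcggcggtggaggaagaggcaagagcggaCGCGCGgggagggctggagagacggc
Slc10a4: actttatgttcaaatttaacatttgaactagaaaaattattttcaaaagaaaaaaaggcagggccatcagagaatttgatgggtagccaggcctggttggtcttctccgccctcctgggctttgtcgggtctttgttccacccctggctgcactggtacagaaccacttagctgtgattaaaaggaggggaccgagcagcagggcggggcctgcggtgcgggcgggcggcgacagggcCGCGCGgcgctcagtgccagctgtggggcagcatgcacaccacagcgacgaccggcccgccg
Cmtm8: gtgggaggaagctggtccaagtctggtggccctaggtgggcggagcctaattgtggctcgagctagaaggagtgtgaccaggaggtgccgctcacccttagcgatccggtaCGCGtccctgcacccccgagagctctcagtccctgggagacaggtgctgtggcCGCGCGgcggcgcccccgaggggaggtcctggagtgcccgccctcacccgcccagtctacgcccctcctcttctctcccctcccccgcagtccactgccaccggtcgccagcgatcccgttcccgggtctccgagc
The palindrome CGCG, which reads the same on both strands, was found 4 times in the Slc18a3 window, 2 times in that of Slc10a4 and 3 times in that of Cmtm8, overlapping matches included. Of all 32851 promoter windows, 38.0% held it. The windows had 27, 18 and 24 CpG dinucleotides. TAATTA, the core of many homeodomain motifs, and TATAAA were searched on both strands, stand in 5.29% and 13.6% of all windows, and occurred in none of the 3.

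Across all tested genes, 81 were called higher in the 17:183 mixture than in pure cones (0.651%) and 10 were called lower (0.0804%). Among the 81, the arrays of the mixture stood wholly above those of pure cones for 79, the exceptions being Mgll and Cend1, the second of which was named after its values were seen. Over all tested genes, 875 had mixture arrays wholly above the cone arrays (7.03%) and 616 wholly below (4.95%). Of the 81, 72 had a higher mean on pure starburst arrays than in the mixture. Without the third arrays of both groups, 73 genes were called higher (0.587%), of which 55 were among the 81. With the replicate number as a block, 84 were called higher (0.675%) and 11 lower (0.0884%), which took in all 81 and all 10. By the adjusted p alone, with no minimum difference, 91 genes passed higher (0.731%) and 14 lower (0.113%). When the spread was estimated from the 6 arrays alone, 8 genes were called higher and 0 lower by limma, with 823 at an unadjusted p under 0.05. These 8 were Slc18a3, Calb2, Slc10a4, Sox2, Gsto1, Npy, Tgfb3 and Rprl1.

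**Figure D1:**
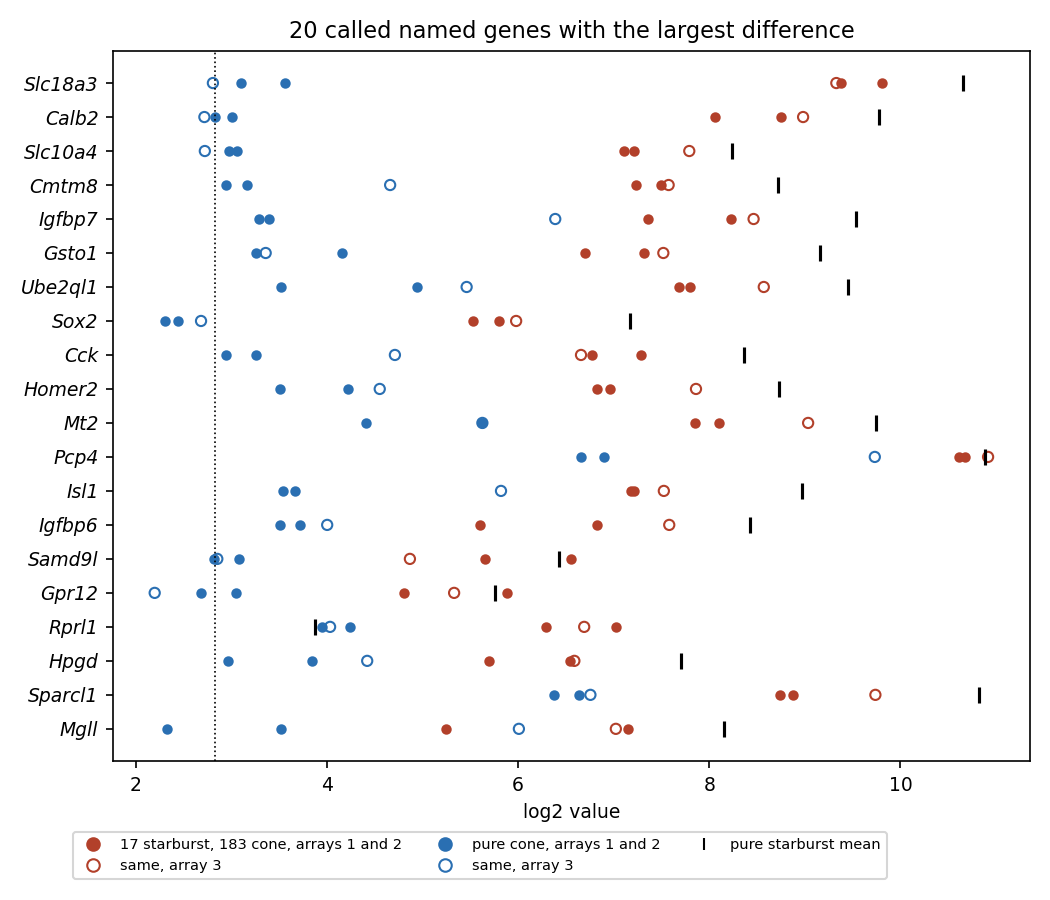
Log2 values (x axis) of the 20 named genes with the largest difference (y axis) on each 17:183 array (red) and each pure cone array (blue), with the third arrays as open circles, the pure starburst mean as a black tick and the floor of 2.83 as a dotted line. Red and blue points do not overlap in 19 of the 20 genes, Mgll being the exception.

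Transcription factors of starburst cells were among the genes with the largest differences. Sox2, which marks starburst cells among amacrine cells and is also made by Muller glia, had 5.80, 5.53 and 5.98 in the mixture, against 2.44, 2.31 and 2.68 in pure cones, a difference of 3.29 ± 0.20 (4e-10). All of its cone values lay under the floor. Isl1, a homeodomain factor of starburst, bipolar and ganglion cells, had 7.22, 7.18 and 7.53, against 3.54, 3.66 and 5.82, a difference of 2.97 ± 0.39 (9.66e-05). The third cone array set its spread, and the difference was 3.60 without the third arrays of both groups. Tfap2b, an amacrine factor, had 5.02, 4.45 and 5.28, against 3.29, 3.81 and 3.81, a difference of 1.28 ± 0.24 (0.00439) that was no longer called without the third arrays (adjusted p = 0.0528).

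The growth factor binding protein Igfbp7 had 8.22, 7.36 and 8.46 in the mixture, against 3.39, 3.29 and 6.39 in pure cones, a difference of 3.66 ± 0.53 (0.000365). The related Igfbp6 differed by 2.93 ± 0.39 (0.000103). Among neuropeptides, cholecystokinin (Cck) had 6.78, 7.28 and 6.66, against 3.26, 2.95 and 4.71, a difference of 3.27 ± 0.41 (4.88e-05). Neuropeptide Y (Npy) had 7.29, 7.25 and 7.61, against 5.17, 5.21 and 5.39, a smaller difference of 2.13 ± 0.24 (1.26e-05) on arrays that agreed closely within each group. The secreted matrix protein Sparcl1 had 8.88, 8.74 and 9.74, against 6.63, 6.37 and 6.76, a difference of 2.53 ± 0.19 (1.21e-08). Cones alone thus already read well above the floor for Npy and Sparcl1. The orphan receptor Gpr12 differed by 2.70 ± 0.36 (0.000112).

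The glutathione transferase Gsto1 had 7.32, 6.70 and 7.52 in the mixture, against 4.15, 3.26 and 3.36 in pure cones, a difference of 3.59 ± 0.22 (5.56e-10). Pcp4, a small calmodulin-binding protein, had 10.61, 10.67 and 10.92, against 6.90, 6.66 and 9.73, a difference of 2.97 ± 0.44 (0.000511). The mixture's mean for Pcp4 lay within 0.15 of the pure starburst mean of 10.88, and the third cone array stood far above the other two. The ubiquitin-conjugating enzyme Ube2ql1 differed by 3.37 ± 0.31, the synaptic scaffold Homer2 by 3.12 ± 0.33, the metallothionein Mt2 by 3.11 ± 0.40, the antiviral-response gene Samd9l by 2.77 ± 0.46, the prostaglandin dehydrogenase Hpgd by 2.54 ± 0.34 and the potassium channel subunit Kcnmb4 by 2.48 ± 0.30. All of these were called. Mgll, the lipase that degrades 2-arachidonoylglycerol, had 7.16, 5.25 and 7.02, against 3.52, 2.33 and 6.01. Its groups overlapped, and its call (2.52 ± 0.59, 0.0386) was lost in 7 of 14 alternatives, among them those without 17:183 replicate 1 or 3 or pure cone replicate 1 or 2.

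Rprl1, an RNA gene related to ribonuclease P, was the exception among the 20. It had 6.30, 7.02 and 6.69 in the mixture, against 3.95, 4.25 and 4.03 in pure cones, a difference of 2.59 ± 0.54 (0.0158). Over 43, 50, 100, 125, 150 and 200 starburst cells it averaged 4.51, 5.05, 4.32, 5.95, 3.88 and 3.87, and Arc cells averaged 4.94, so several other groups also stood above both pure groups. Without the third arrays of both groups its adjusted p was 0.126, and the call was also lost without 17:183 replicate 2 or 3 or pure cone replicate 1 or 3. In the other 19 genes the pure starburst mean lay above the mean of the mixture.

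The third cone array was the highest of the cone arrays in 13 of the 20 genes, and by over 1 log2 unit above both others in 6. In the mixture too, the third array was the highest, in 14 of the 20. The shares over all tested genes were not counted. The third cone array had Igfbp7 at 6.39, Isl1 at 5.82 and Pcp4 at 9.73. Slc18a3, Calb2 and Slc10a4 read 2.81, 2.72 and 2.72 there, at or under the floor. The neuropeptide precursor Cartpt of other amacrine cells read 7.93 on that array and 4.71 and 4.05 on the other cone arrays, against 3.72, 3.79 and 5.20 in the mixture. The part of such other cells in the spread of pure cones was not tested.

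**Figure D2:**
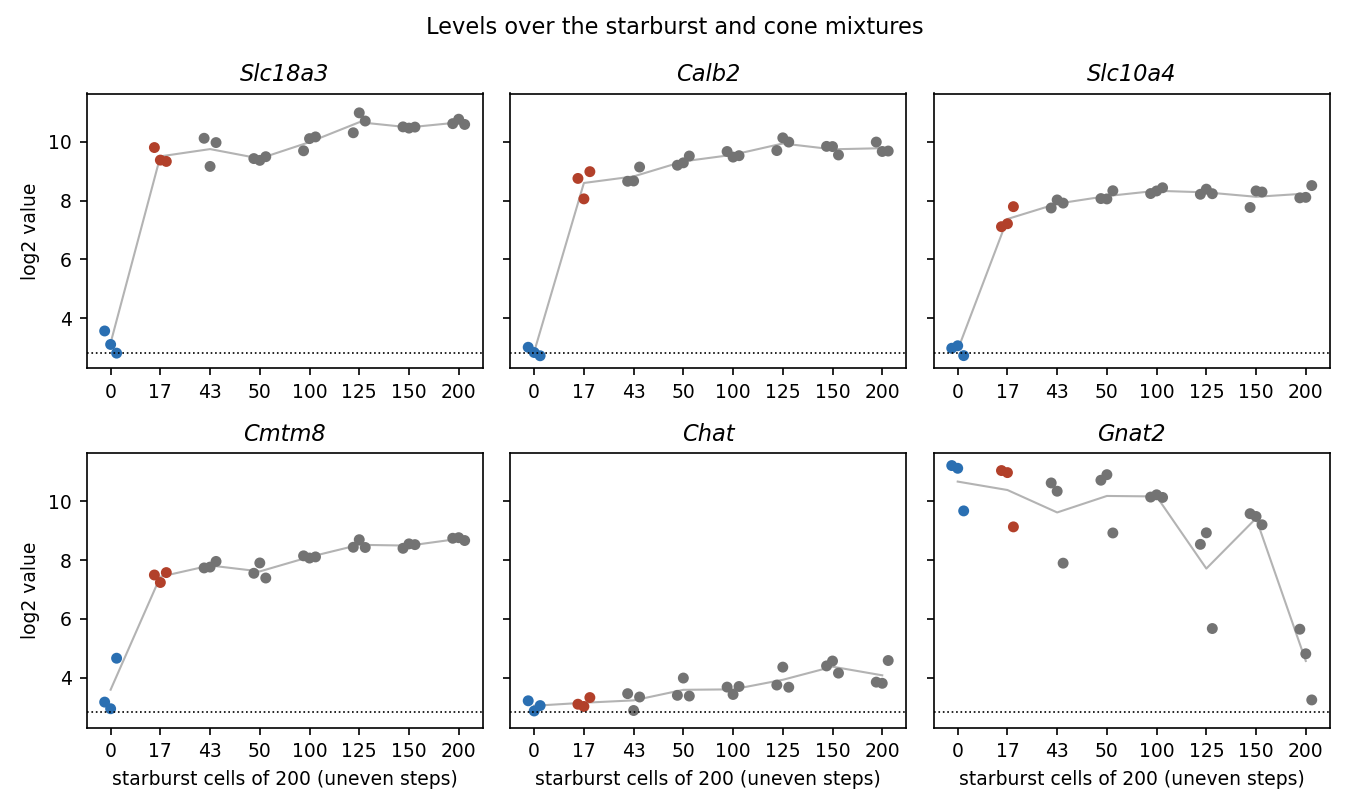
Log2 values (y axis) against the number of starburst cells among 200 (x axis, in uneven steps) for 4 starburst markers, Chat and the cone gene Gnat2, with 1 point per array, 17:183 in red, pure cones in blue, other groups in grey, a line through group means and the floor dotted. The 4 markers step up between 0 and 17 starburst cells and climb less afterwards, and Chat stays between 3.04 and 4.37 on average in every group shown.

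Between neighbouring mixtures, the markers had no further called step beyond 17 cells. Against pure starburst arrays, limma called the mixture with 17 cells lower for Slc18a3 (-1.15, adjusted p = 0.00273) and Calb2 (-1.18, 0.000468). The same held for Cmtm8 (-1.29, 0.00423), Sox2 (-1.40, 0.000126) and Isl1 (-1.66, 0.00941). Slc10a4 differed by -0.86 (0.00736), short of the minimum difference of 1. With 0, 17, 43, 50, 100, 125, 150 and 200 starburst cells Slc18a3 averaged 3.16, 9.50, 9.75, 9.43, 9.99, 10.66, 10.49 and 10.66, and the SD over 3 arrays was 0.38 in pure cones, 0.26 at 17 cells and at most 0.52 in any group. Calb2 averaged 2.85, 8.60, 8.82, 9.33, 9.56, 9.94, 9.74 and 9.78 over the same steps. For Slc18a3, Calb2, Slc10a4, Cmtm8, Sox2 and Isl1 the step between 0 and 17 cells was the only step between neighbouring mixtures that was called. From 17 to 43 cells, Slc18a3 differed by 0.25 ± 0.23, Calb2 by 0.22 ± 0.19, Slc10a4 by 0.52 ± 0.20, Cmtm8 by 0.38 ± 0.27, Sox2 by 0.57 ± 0.20 and Isl1 by -0.10 ± 0.39, none of them called (adjusted p between 0.441 and 0.983).

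The markers in the mixture read at 31.6% to 54.9% of their pure starburst levels. Slc18a3 stood at 44.9% of its pure starburst level on the linear scale (95% interval 32.4% to 62.4%), Calb2 at 44.0% (33.4% to 58.0%), Slc10a4 at 54.9% (41.5% to 72.7%) and Cmtm8 at 40.9% (27.8% to 60.4%). Sox2 stood at 37.8% (28.3% to 50.5%) and Isl1 at 31.6% (18.1% to 55.3%). All 6 intervals lay above the sorted share of 8.5%. If RNA and signal had followed the sorted cell numbers between the pure ends, the difference from pure cones would have been 4.03 for Slc18a3, 3.49 for Calb2 and 1.96 for Cmtm8, beside the measured 6.34, 5.75 and 3.84. Both sets of values use the pure cone arrays and are given side by side for that reason. In such pools, more cells of a type and more RNA per cell cannot be told apart. The percentages are of array signal, and whether signal followed RNA amount at these levels was not tested. Among these 6 markers, the log2 rise from 50 starburst cells to pure starburst ran from 0.08 (Slc10a4) to 1.23 (Slc18a3).

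Chat itself was not detectable as higher. It had 3.10, 3.02 and 3.32 in the mixture, against 3.21, 2.87 and 3.05 in pure cones, a difference of 0.10 ± 0.22 (adjusted p = 0.956), and the groups overlapped. On pure starburst arrays it averaged only 4.08 ± 0.44 (SD, n = 3), so this probe set was dim even with 200 starburst cells. Slc5a7 averaged 3.68 on pure starburst arrays and differed by 0.07 between mixture and cones. Ache, at 5.31 on pure starburst arrays, already read 5.51 in pure cones and differed by -0.03. Of 7 tested genes of acetylcholine metabolism and release, 2 were called higher (Slc18a3 and Slc10a4), 0 lower, and 5 were not called, beside 0.651% and 0.0804% of all tested genes called higher and lower, with a median difference of 0.10 beside 0.02 over all tested genes. Chrnb4, the nicotinic receptor subunit whose promoter drives the cone reporter, had 5.37, 4.49 and 3.41, against 4.71, 4.22 and 3.26, a difference of 0.36 ± 0.44 (0.891).

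Of 16 starburst marker genes, all tested, 4 were called higher and 12 were not (Slc18a3, Slc10a4, Sox2 and Isl1 being the 4), beside 0.651% of all tested genes called higher, and the median difference was 0.23. Among the 12, the potassium channel Kcnc2 differed by 0.28 and the adhesion receptor Megf11 by 0.43, with pure starburst means of 5.59 and 4.78. The 4 called members had pure starburst means of 7.17 or more and Kcnc2 had the highest among the 12. Of 15 tested pan-amacrine and GABAergic genes, 4 were called higher, beside 0.651% of all tested genes, with a median of 0.45: Calb2, the calcium-binding Calb1, the GABA-synthesising enzyme Gad1 and Tfap2b. Calb1 had 4.71, 4.35 and 4.88, against 1.75, 2.09 and 3.66, a difference of 2.15 ± 0.33 (0.00061). Gad1 had 6.91, 6.57 and 6.74, against 4.98, 4.45 and 6.17, a difference of 1.54 ± 0.28 (0.00419). Not called there were the vesicular GABA transporter Slc32a1 (0.45), the synaptic genes Snap25 (0.50) and Syt1 (0.37), which read 6.65 or more on every pure cone array, and the eye-field factor Pax6 (0.69).

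Genes of other amacrine types were called higher for 2 of 14, Cck and Npy, beside 0.651% of all tested genes, with a median of 0.09. Cck and Npy averaged 8.37 and 9.37 on pure starburst arrays, above their 6.91 and 7.38 in the mixture. The substance P precursor Tac1 had 4.12, 4.09 and 5.69 in the mixture, against 7.69, 7.99 and 5.78 in pure cones. The mixture arrays stood wholly below the cone arrays, but the difference of -2.52 ± 0.80 did not pass (adjusted p = 0.203). A further list of 10 genes known from earlier results of these arrays (among them Igfbp7, Gsto1, Cmtm8 and Homer2) had all 10 called higher, and since it was drawn from these samples that count is no independent evidence. It also held the stress-response gene Nupr1, which differed by 1.81 ± 0.33, and the receptor Gpr37, which differed by 1.75 ± 0.20.

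**Figure D3:**
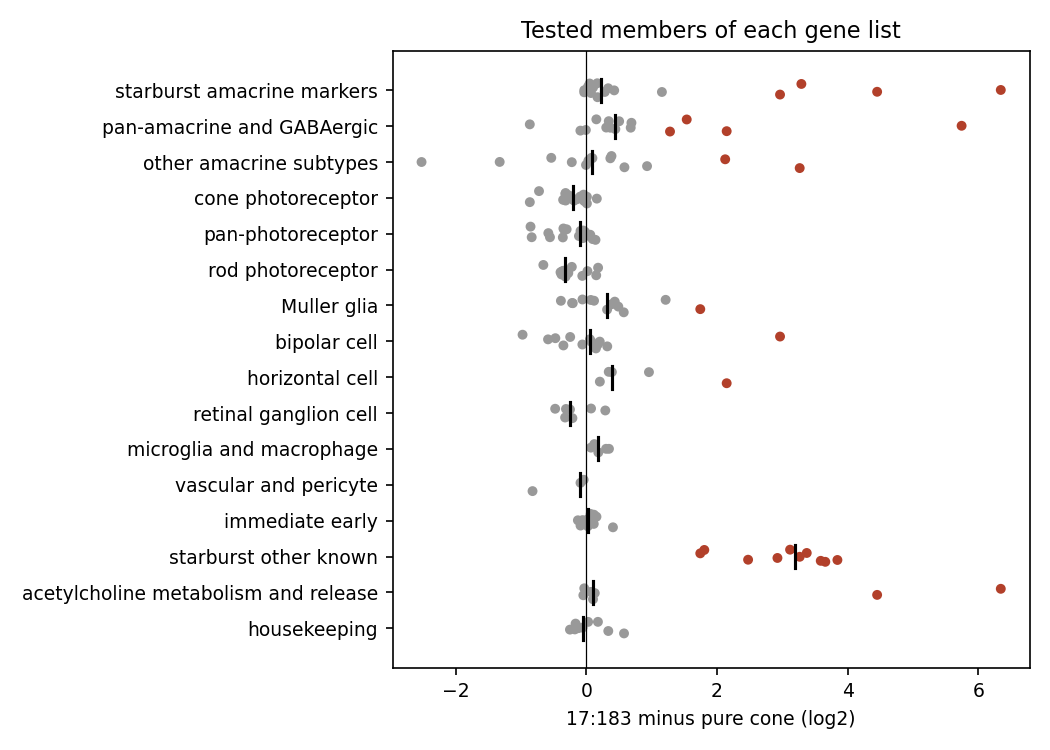
Difference between the 17:183 mixture and pure cones on the log2 scale (x axis) for each tested member of 16 gene lists (y axis), with called genes in red, genes not called in grey and the list median as a black bar. Called genes stand in the starburst and amacrine lists and, through Gpr37, Isl1 and Calb1, in the Muller glia, bipolar and horizontal cell lists.

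Markers of other cells that the sort could hold were read the same way. Of 13 tested Muller glia genes 1 was called higher (Gpr37), of 13 bipolar genes 1 (Isl1) and of 5 horizontal cell genes 1 (Calb1), beside 0.651% of all tested genes, and these 3 averaged 7.75, 8.97 and 6.93 on pure starburst arrays. Among 7 ganglion cell, 5 microglia, 3 vascular and 13 immediate early genes 0 were called by limma in either direction. Summed over the list on the linear scale, Muller glia genes read 976.9 to 1161 in the mixture and 680.7 to 993.9 in pure cones, and bipolar genes 357.9 to 593.5 and 266.1 to 573.3. Microglia genes read 60.9 to 66.5 in the mixture and 56.5 to 64.9 in pure cones, with the defining Aif1, Csf1r and P2ry12 not above the floor in the mixture. Of 10 vascular genes 8 were not above the floor in the mixture, Pecam1 and Cldn5 among them, while Vtn, also read in photoreceptors, made up most of the sum of 614.8 to 1596 in the mixture and 820.7 to 1535 in pure cones. The haemoglobin genes were not measured, and Alas2, the only red blood cell gene measured, was not above the floor. Rod genes summed to 4339.9 to 5595 in the mixture and 5060.4 to 7759 in pure cones, with 0 of 14 called. The part of these cells in the results was not tested.

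To ask which starburst genes stay readable without using either group in the choice, 123 genes were taken that limma called higher in pure starburst arrays than in the mixture of 50 starburst and 150 cone cells, which was 0.989% of the tested genes. They are called starburst-high genes below. Of the 123, 21 were called higher in the 17:183 mixture than in pure cones (17.1%), beside 0.651% of all tested genes, and 102 were not called. Their median difference was 0.49, beside 0.02 over all tested genes, with quartiles of 0.10 and 0.81. Arrays of the mixture stood wholly above those of pure cones for 39 of them (31.7%), beside 7.03% of all tested genes. Without the third arrays of both groups 14 were called.

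The called starburst-high genes were brighter by median in pure starburst cells, with ranges that overlapped those not called. Their median pure starburst level was 7.45, with a range of 5.82 to 10.66. The genes not called had 5.50, with a range of 3.12 to 9.34, while the median cone levels were 3.59 and 3.70. With cone levels alike, a call that needs a rise of at least 1 favours bright genes, so this contrast is partly built into the rule. After Slc18a3, Cmtm8, Gsto1 and Kcnmb4, the growth factor Tgfb3 differed most. It had 5.20, 4.93 and 5.37 in the mixture, against 2.94, 2.82 and 2.67 in pure cones, a difference of 2.36 ± 0.22 (5.48e-07). Receptor genes among the called were the ATP-gated channel P2rx2 (1.75 ± 0.31, 0.00361), the serotonin receptor Htr2b (1.88 ± 0.42, 0.0276) and the GABA-A receptor subunit Gabrd (1.66 ± 0.25, 0.000456). The asparagine synthetase Asns, at 9.67 on pure starburst arrays, differed by 1.57 ± 0.24 (0.000715). Tgfb3, P2rx2, Htr2b and Gabrd were named after their values were seen. Htr2b was not called without the third arrays.

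**Figure D4:**
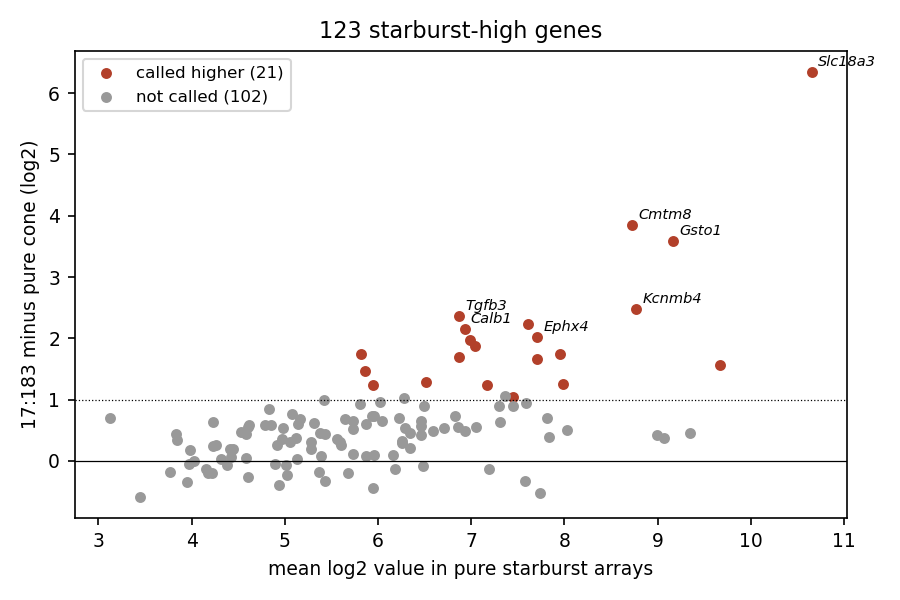
Difference between the 17:183 mixture and pure cones on the log2 scale (y axis) against the pure starburst level (x axis, log2) for 123 starburst-high genes, 21 called higher in red and 102 not called in grey, with lines at 0 and 1. Called genes lie to the right, at pure starburst levels of 5.82 or more, and many genes of the same brightness are not called.

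Bright starburst-high genes were also found among those not called. The brightest genes not called were Ufc1, of protein modification by Ufm1, at 9.34 on pure starburst arrays, the proteasome subunit Psmd14 at 9.06 and the mitochondrial import protein Timm10 at 8.99. Ufc1 had 8.56, 8.15 and 7.56 in the mixture, against 7.23, 8.54 and 7.11 in pure cones, a difference of 0.46 ± 0.30 (0.696). Cones thus read Ufc1 almost as brightly as the mixture. Psmd14 differed by 0.37, Timm10 by 0.43, the methyltransferase Lcmt1 by 0.39, Exosc7 of the RNA exosome by -0.52 and the mitochondrial carrier Sfxn1 by -0.32. The neuronal membrane protein Gpm6a (0.51), Mblac2 (0.70), the sarcoglycan Sgcb (0.95) and Nap1l5 (0.89) were higher in value without passing the test. Sgcb had 4.77, 3.95 and 4.83, against 4.04, 3.05 and 3.61, and read 7.58 on pure starburst arrays.

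How many genes count as readable depends on how starburst genes are chosen. Another choice, again using neither group, was the 173 genes called higher in pure starburst cells than in Arc amacrine cells. Of these, 41 were called higher in the mixture (23.7%), beside 0.651% of all tested genes. Their median difference was 0.43. Without the third arrays of both groups 32 were called, beside 0.587% of all tested genes. Of 175 genes higher in pure starburst than in pure cones by at least 2, 68 were called (38.9%), beside 0.651% of all tested genes. That choice shares the pure cone arrays and is a description only. Calb2 and Slc10a4 are absent from the 123 because they differ little between pure starburst cells and the mixture with 50. Of the 4 genes that differed there by at least 2, 0 were called by limma, beside 0.651% of all tested genes. The mixture arrays stood wholly above the cone arrays for 1 of them, beside 7.03% of all tested genes.

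The mixture was then placed between the pure ends by the median position of the 123 genes, with 0% for the pure cone mean and 100% for the pure starburst mean on the linear scale. The 17:183 arrays lay at 14.7%, 11.3% and 15.6%, against 0.339%, -1.36% and -0.925% for the pure cone arrays, each set against the other cone arrays. The groups did not overlap, and a two-sided exact permutation test gave p = 0.1, the smallest that 3 against 3 arrays allow. The mean was 13.9% ± 2.25 (SD, n = 3) for the mixture and -0.65% ± 0.88 for pure cones. By the 173 genes chosen against Arc cells the mixture lay at 16.4% ± 4.50 and pure cones at -0.17% ± 1.95. The arrays of 43 starburst cells lay at 18.1% ± 2.62 by the 123 genes, and against them the exact permutation p was 0.2.

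**Figure D5:**
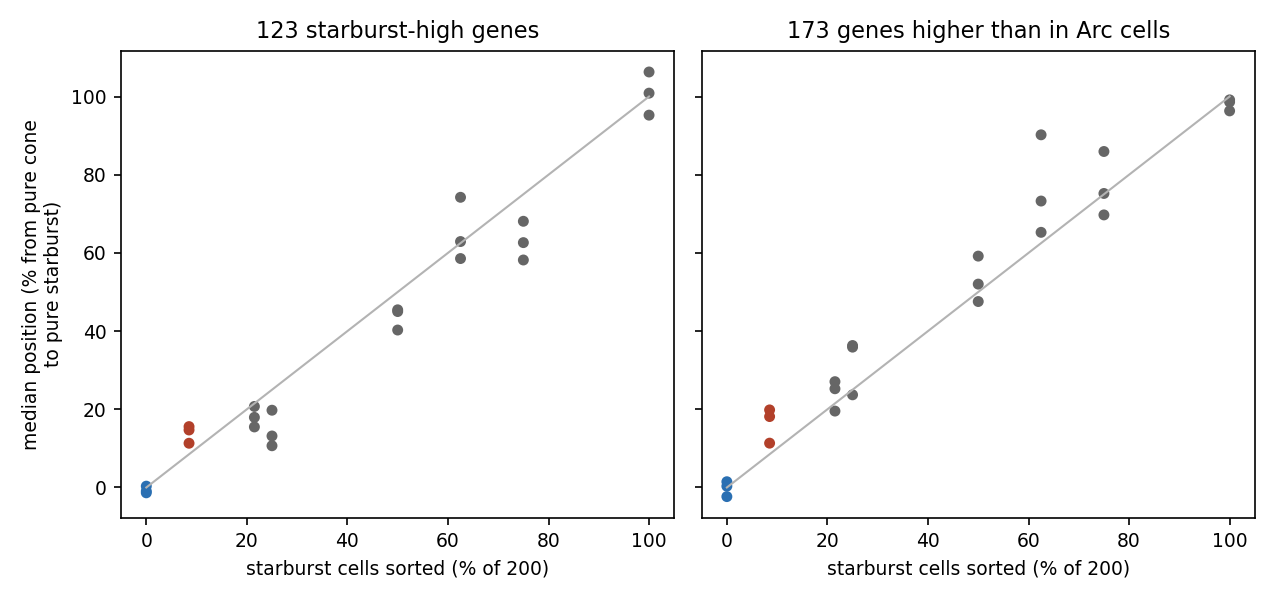
Median position of each array between pure cones and pure starburst cells (y axis, percent on the linear scale) against the sorted share of starburst cells (x axis, percent), for the 123 starburst-high genes (left) and the 173 genes higher than in Arc cells (right), with 17:183 in red, pure cones in blue, other groups in grey and a line where position equals sorted share. The 17:183 arrays lie at 11.3% to 15.6% on the left, above the cone arrays and overlapping those with 25% starburst cells. The arrays with 25% starburst cells were used to choose the genes on the left by their low level there. On the right, where they were not used, they lie at 23.7% to 36.3%, above the 11.3% to 19.8% of the 17:183 arrays.

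Position and sorted share are not the same quantity for single genes. Among the starburst-high genes, 20 had a pure cone mean under the floor, and the 95% interval of their level relative to pure starburst lay above the sorted share of 8.5% (-3.56 on the log2 scale) in all 20. Only genes whose pure starburst level exceeds 6.38 could fall that far and still stand above the floor. That held for Calb1 and Tgfb3, which lay -2.28 (-2.96 to -1.60) and -1.70 (-2.15 to -1.24) from pure starburst.

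Few genes separated the mixture from those with 43 or 50 starburst cells. Between the mixtures with 43 and with 17 starburst cells, limma called 0 genes higher and 0 lower (0%), with 332 higher and 667 lower at an unadjusted p under 0.05. That count rests on the third array of the 17:183 mixture: without it 5 were called higher and 28 lower, and without the third arrays of both mixture and pure cones 7 and 52. With the replicate block, 0 were called higher and 6 lower. In none of these settings was a starburst-high gene called higher with 43 cells. Those genes were chosen by their low level with 50 cells, so a rise with 43 cells was selected against. Without the third arrays of both mixture and pure cones, the 7 called higher included Sparcl1 (1.03, adjusted p = 0.00186) and Tagln3 (1.38, 0.0113). These 2 genes were higher in pure starburst than in pure cones by 4.23 and 3.80. The starburst-high gene Ccdc106 was called lower in that setting (-1.11, 0.0484). Between the mixtures with 50 and with 17 starburst cells, 2 genes were called higher (0.0161%), the phosphodiesterase Pde4d by 1.29 and Sparcl1 by 1.09, and 1 lower (0.00804%), the ribonuclease Ang6 by -1.19, each at an adjusted p of 0.036 (2 higher and 2 lower with the replicate block). Without 17:183 replicate 3 the counts were 5 higher and 11 lower, without the third arrays of both mixture and pure cones 10 and 24, and without those of the 4 groups richest in cones 4 and 19. Tagln3, Ccdc106, Pde4d and Ang6 were named after their values were seen. Pde4d had 3.23, 2.38 and 2.26 in the 17:183 mixture, against 2.77, 2.17 and 2.01 in pure cones, and was not called there although pure starburst arrays read 5.28.

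Cone genes were not called different. The medium-wave opsin Opn1mw had 11.21, 11.22 and 9.81 in the mixture, against 11.13, 11.34 and 10.18 in pure cones, a difference of -0.14 ± 0.59 (adjusted p = 0.985). The short-wave opsin Opn1sw differed by -0.26 ± 0.95, Gnat2 by -0.29 ± 0.83 and the cone arrestin Arr3 by -0.09 ± 0.79. The spread in all 4 comes mainly from the third arrays, and a loss of 8.5% of the cones would be a difference of -0.13. Of 94 genes called lower in pure starburst cells than in the mixture with 50 (0.756% of tested genes), 1 was called lower in the 17:183 mixture (1.06%; 0 without 17:183 replicate 2 or pure cone replicate 1 or 3, and 2 without 17:183 replicate 3), beside 0.0804% of all tested genes, and the median was -0.27. The 95% interval held -0.13 for 89 of the 94, and for the other 5 it lay below. The median SE of the 93 not called was 0.39, so such intervals do not tell -0.13 from 0. Some 95% intervals miss by construction, and the share over all tested genes was not counted, so the 5 are a description only. These 5, named after their values were seen apart from the first, were B430209F14Rik (-1.26), the phosphatase Ppef2 (-0.86), the complexin Cplx4 (-0.85), the ciliary proteins Rp1 (-0.84) and Rpgrip1 (-0.79). Of 17 cone, 18 pan-photoreceptor and 14 rod genes tested, 0 were called by limma in either direction, with medians of -0.20, -0.10 and -0.33.

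The genes called lower were led by the following. The cell cycle inhibitor Cdkn2c had 2.64, 2.23 and 2.67 in the mixture, against 4.42, 3.73 and 5.94 in pure cones, a difference of -2.18 ± 0.36 (0.00162). No group other than pure cones averaged above 2.92 for it. The olfactory receptor genes Olfr1002 (-1.84), Olfr342 (-1.31) and Olfr807 (-1.17) stood beside the protocadherin Pcdh15 (-1.47), the chaperone Dnajb14 (-1.08) and Drc3 (-1.001), a gene of motile cilia. Olfr1002 had 1.76, 1.68 and 1.75, against 4.55, 3.21 and 2.94. Both Olfr1002 and Olfr342 averaged under the floor in every group other than pure cones. For these 2 genes the 3 pure cone arrays alone were enough to pass the filter on dim genes. Olfr807 and Drc3 averaged at most 3.12 and 3.03 outside pure cones, against 4.14 and 3.90 in them. Single arrays decided some of these calls. Olfr807 lost its call without 17:183 replicate 2 or 3 or pure cone replicate 1 or 2, Dnajb14 without 17:183 replicate 1 or 3 or pure cone replicate 1, and Drc3 without any one array other than pure cone replicate 3. Without pure cone replicate 1 or 3, 18 genes were called lower, and without pure cone replicate 2, 15. The remaining 3 were predicted genes, and 4 of the 10 lay under the floor in the mixture. Without the third arrays of both groups 18 genes were called lower (0.145%), among them 9 of the 10, the exception being B430209F14Rik (adjusted p = 0.108).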

How the data were processed

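Expression was measured on 27 arrays of 200 sorted cells each, 3 in each of 9 groups, grouped by their titles. The deposited values are log2 intensities made by the authors with RMA in the R package oligo (R 2.11.1, genome build mm9), per the submitters' processing notes. Whether all arrays were normalized together is not given in the sources used here. No 2 arrays were identical (0 pairs).

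The probe table gave 1 symbol for 19446 of 22347 probe sets, several for 735 and none for 2166. Only the first kind entered the gene tests, and for 133 genes with several probe sets the brightest was used. Symbols of 19368 probe sets were matched to RefSeq, and 0 changed. A single limma model (version 3.58.1, R 4.3.3, eBayes) gave each group its own mean over the 27 arrays, leaving 18 residual degrees of freedom, and p-values were adjusted over 12441 genes. The fit was tested on simulated data. Labels number the replicates and the design speaks of sorts from different mice. Deviations of same-numbered arrays of the 17:183 and pure cone groups correlated at 0.197, 0.125 and 0.305, against -0.260 to 0.129 for unlike numbers. Replicates 1 and 3 lay above that range and replicate 2 within it, so a replicate block was an alternative. Other alternatives left out arrays or changed the filter, scaling, weights or gene choice.

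Named genes were the 10 markers of starburst cells and cones, the 20 called genes with the largest difference upward and the 10 downward, called list members with up to 4 uncalled ones per list, and the brightest starburst-high genes; predicted genes were only counted. Members and lists were chosen with earlier results of these data known.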

Additional observations from a re-analysis of the deposited data

Results flagged for a closer look

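Probe sets with no single gene symbol were left out of the gene tests and were tested apart. Of 1954 such probe sets tested by limma, 4 were called higher in the 17:183 mixture than in pure cones (0.205%) and 2 lower (0.102%). Of the 4, 3 had no symbol in the probe table and 1 had several. The largest difference was 2.34 ± 0.34 (adjusted p = 0.000537), for a probe set that read 6.55, 6.57 and 7.76 in the mixture, against 4.40, 3.95 and 5.52 in pure cones.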

How the results depend on the processing

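The counts and values below changed by more than 1.5 times or moved beyond their spread, and no result reversed. Without one array at a time, 67 to 98 genes were called higher and 7 to 18 lower, 17 to 25 starburst-high genes higher and 0 to 2 cone-high genes lower, with 0 to 5 genes higher with 43 than with 17 starburst cells and 0 to 5 with 50. With the 6 arrays alone the counts were 8 higher, 0 lower, 3 starburst-high and 0 cone-high, and fewer arrays then estimate the spread. Without the third arrays of both groups there were 18 lower, 14 starburst-high, 0 cone-high, 7 (43 cells) and 10 (50 cells), and without the third arrays of the 4 groups richest in cones 5 and 4. The adjusted p alone gave 2 cone-high genes, and array weights gave 1 (43 cells) and 8 (50 cells). By the choice of starburst genes, the count, median difference and position were 0, 0.69 and 4.72% (difference from the mixture with 50 of at least 2), 41 and 16.4% (against Arc cells), and 68, 1.15 and 23.0% (against pure cones, added after seeing the data). The replicate block gave 84 higher and 11 lower against pure cones, moved the genes lower with 43 than with 17 cells to 6 and those lower with 50 to 2, and changed no other count by over 1.5 times. Of 38 named called genes, 6 kept the call under all 14 alternatives (Slc18a3, Calb2, Slc10a4, Gsto1, Sox2 and Npy) and 24 lost it only with the 6 arrays alone. The causes were not tested. With 3 arrays a group and many genes near the floor, a gene not called is not shown to be absent.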

Other observations

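Other genes called higher in the 17:183 mixture, named here after their values were seen, include neuronal and secretory ones. Chn1, a GTPase-activating protein of axon guidance, had 7.74, 7.20 and 7.58 in the mixture, against 5.85, 5.38 and 6.04 in pure cones, a difference of 1.76 ± 0.17 (adjusted p = 1.39e-06). The transcription regulator Id4 differed by 1.98 ± 0.24 (4.42e-05) and the myelin-associated surface protein Omg by 1.86 ± 0.32 (0.00248). Mt1, the partner of Mt2 in metal binding, differed by 1.45 ± 0.28 (0.0085) and the granin Scg2 by 1.28 ± 0.27 (0.0162). All 5 had a higher mean on pure starburst arrays than in the mixture. The groups overlapped in none of them, while 7.03% of all tested genes had mixture arrays wholly above the cone arrays. These 5 were picked from the 81 genes called higher, of which 79 did not overlap, so this adds no support.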
